A study of Mus musculus with 22 samples.

Results

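Erythroid-primed cells are a small fraction of the blood progenitors in the mouse fetal liver, and here they were taken from single-cell RNA-seq by raw counts of 5 marker genes. A cell was included when its counts of Klf1, Gata1, Car1, Epor and Rhd summed to 3 or more while its counts of the megakaryocyte genes Pf4, Gp9 and Gp1bb summed to under 3; a count of Ppbp, also named in the rule, was not analysed here. The gate held 424 of 15678 cells that passed quality control. They came from 4 single-cell libraries of a series of 22 samples in 10 groups, of which bulk RNA-seq and CUT&RUN for the histone mark H3K4me3 of the same sorted population are also used. All samples were from fetal liver at E14.5, in the middle of gestation. The deficient embryos (KO) carried floxed Mettl3 alleles together with Vav-Cre, and the controls (WT) were Mettl3 fl/fl without Vav-Cre. Both genotypes thus carried the floxed alleles, and the Vav promoter drives Cre in blood cells and part of the endothelium. Single-cell RNA-seq had 2 KO and 2 WT libraries, bulk RNA-seq 3 and 3, and H3K4me3 CUT&RUN 2 and 2. The cells were LSK cells, which lack lineage markers and carry Sca-1 (encoded by Ly6a) and c-Kit (Kit) on the surface. Single cells were captured with barcoded beads in microwells.

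Red cell formation begins when a multipotent progenitor starts to express the transcription factors GATA1 and KLF1, which together activate the genes of the erythropoietin receptor, of heme synthesis, of the globins and of the red cell membrane. Carbonic anhydrase 1 (Car1) and the Rh blood group protein (Rhd) are among the early products of that programme. In the fetal liver at mid-gestation most cells are erythroid, and LSK cells sit upstream of them; an LSK cell with transcripts of these genes is described as primed for the erythroid fate. METTL3 is the catalytic subunit of the complex that writes N6-methyladenosine (m6A) on messenger RNA. The interferon-stimulated genes, which are followed here beside the erythroid genes, are induced through receptors of interferon or by sensors of foreign or double-stranded RNA.

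GATA1 binds sites with the letters AGATAA or TGATAA on either strand, and KLF1 binds sites that hold CACCC. The 150 bases before the RefSeq start (GRCm38.p6) are printed for 4 genes named in the results below: the gate genes Klf1, Rhd and Epor, and Cpox, an enzyme of heme synthesis. Capitals mark both motifs on either strand.
Klf1, chr8:84901832-84901981, + strand: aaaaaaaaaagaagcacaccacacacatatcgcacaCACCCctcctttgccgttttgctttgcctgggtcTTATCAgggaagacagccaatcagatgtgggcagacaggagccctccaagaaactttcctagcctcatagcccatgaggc
Rhd, chr4:134864386-134864535, + strand: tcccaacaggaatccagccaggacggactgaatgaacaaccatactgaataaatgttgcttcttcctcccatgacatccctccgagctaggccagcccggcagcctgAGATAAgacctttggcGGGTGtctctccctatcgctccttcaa
Epor, chr9:21963577-21963726, - strand: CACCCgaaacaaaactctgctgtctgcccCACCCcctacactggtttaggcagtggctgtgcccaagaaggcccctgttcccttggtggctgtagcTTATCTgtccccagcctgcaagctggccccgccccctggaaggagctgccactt
Cpox, chr16:58670058-58670207, + strand: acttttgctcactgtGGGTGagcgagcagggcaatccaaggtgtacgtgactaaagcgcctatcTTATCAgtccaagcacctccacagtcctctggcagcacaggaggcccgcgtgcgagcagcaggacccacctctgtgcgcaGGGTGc
The GATA match began 80 bases before the start in Klf1, 43 in Rhd, 54 in Epor and 86 in Cpox. Over the same length, 9.65% of 32851 RefSeq promoters held a GATA match, 37.4% held CACCC and 2.81% held both. No GATA match overlaps a CACCC match in the 4 sequences. The genes were chosen for their role and their matches, so the matches describe these promoters and are no test. The Gata1 promoter held CACCC and no GATA match in this window. Car1 was also sought by symbol and is named only.

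The KO and WT single-cell libraries differed in more than genotype. The X-inactivation transcript Xist was at 251 and 262 against 0 and 0 CPM (KO 1 and KO 2 against WT 1 and WT 2) in gated cells, and the Y-linked gene Eif2s3y was at 0 and 0 against 64.4 and 24.8 CPM, so the sex of the embryos and their genotype cannot be told apart. The 185 and 42 gated cells of KO 1 and KO 2 held 810632 and 293527 counts in all, and the 158 and 39 of WT 1 and WT 2 held 870744 and 186385. Their median counts per cell were 3526 and 5692 in KO and 5162 and 3577 in WT, against 1479, 2135, 2099 and 1560 for all kept cells of the same libraries: a deeper cell has more chance to reach 3 counts. No gated cell shared its barcode with a gated cell of another library, and 8 barcodes of kept cells were shared between libraries. In KO 2, 7 of the 42 gated cells (16.7%) also held at least 2 counts of a list of mast cell, basophil and eosinophil genes, and 13 of all 424 (3.07%) did. Of the other cells, 4.66% did in KO 2 and 3.05% over all libraries. In KO 1, 21 of 185 (11.4%) also held at least 3 counts of the granule genes Elane, Prtn3, Ctsg and Ms4a3, and 25 of all 424 did; of the other cells of KO 1, 20.5% did. These are called granule-positive and mast-positive cells below. Bulk libraries held 20088100 to 40641081 counts and H3K4me3 libraries 11508749 to 14451593 counts in the windows tested. Mettl3 was not taken as a check of the deletion in the single cells, where the position of its counted tags was not examined. It was at 74.9 and 65.4 CPM in KO 1 and KO 2 and 56.4 and 59.5 in WT 1 and WT 2 (gated cells), while bulk LSK RNA held 5.34 CPM in KO and 39.5 in WT. The cause of its level in the KO gated cells was not tested.

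Klf1 supplied most of the counts that placed a cell in the gate. It gave 55.2% of the gate counts and was counted in 91.5% of the 424 cells. Gata1 gave 17.3% of the counts and was seen in 59.7% of cells, Rhd 15.3% and 47.9%, and Epor 9.73% and 40.6%. Car1 gave 2.41% of the counts, was seen in 8.25% of cells and had 0 counts in the gated cells of KO 2. The median gate sum was 4 in KO 1, KO 2 and WT 2 and 5 in WT 1, and the highest sums were 24, 25, 27 and 21 in KO 1, KO 2, WT 1 and WT 2. Just inside the threshold were 130 cells with a sum of 3, and just outside it 249 cells with a sum of 2. Of the gated cells, 55 were admitted by a single gene, 39 of them by Klf1 and 10 by Gata1, while 184 held counts of 2 of the genes, 121 of 3, 55 of 4 and 9 of all 5.

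The share of gated cells did not separate the genotypes. It was 3.76% in KO 1 (95% exact binomial interval 3.25 to 4.33), 1.08% in KO 2 (0.780 to 1.46), 5.79% in WT 1 (4.94 to 6.73) and 0.941% in WT 2 (0.670 to 1.28). The intervals cover counting error only. Both libraries numbered 1 were above both libraries numbered 2, and the genotypes overlapped. The mean was 2.42% ± 1.89 (SD, n = 2) in KO and 3.36% ± 3.43 in WT, a difference of -0.943 percentage points (exact two-sided permutation test, p = 1.0, where 2 against 2 libraries allow 0.333 at the smallest). With each cell thinned to 1000 counts, which left out 847, 685, 268 and 752 shallower cells, the shares were 0.835% and 0.156% in KO 1 and KO 2 and 0.934% and 0.265% in WT 1 and WT 2 (exact permutation p = 0.667). Both libraries numbered 1 were again above both numbered 2, while KO 2 was now below WT 2. The sign of the difference turned without KO 2 (0.397) and without WT 1 (1.48).

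**Figure D1:**
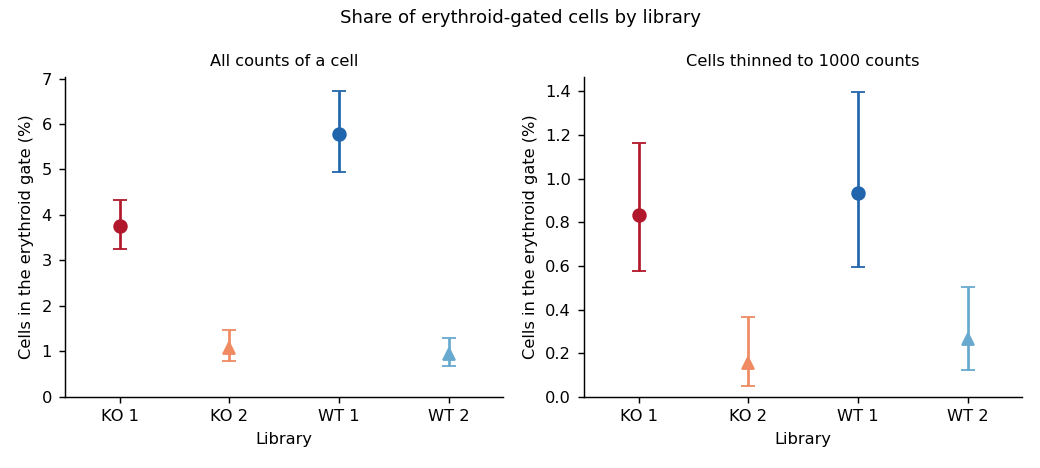
Share of kept cells in the erythroid gate (%, points) with 95% exact binomial intervals (bars) for each library, from all counts of a cell (left) and after thinning to 1000 counts (right). KO 1 and WT 1 lie above KO 2 and WT 2 in both panels.

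Gated cells held the transcripts of a wider erythroid programme. The cells were chosen on counts of the same cells, so their contrast with the remaining 15254 cells is a description with no test. From here to the comparison of the genotypes CPM are plain, from summed counts with no further scaling. The CPM of Xist, Eif2s3y and Mettl3 above are TMM-normalized. Of 8148 genes with a mean of at least 10 CPM in either class, 23.3% were higher in the gated cells of all 4 libraries and 21.8% were lower. Hba-a1, an alpha globin, was at 539, 191, 1448 and 274 CPM in the gated cells of KO 1, KO 2, WT 1 and WT 2 and at 83.4, 5.02, 77.6 and 13.3 CPM in the other cells. It was counted in 57.8% of gated cells (median depth 4298 counts), in 5.15% of the other cells and in 5.51% of the granulocyte-gated cells (median depth 2822), a class that should lack it. Both libraries numbered 1 had more Hba-a1 than both numbered 2. Ermap, an erythroid membrane protein, was at 236, 208, 238 and 333 CPM in gated and 27.0, 3.44, 15.6 and 9.48 CPM in other cells, and was counted in 56.1% of gated and 1.95% of granulocyte-gated cells. The median log2 ratio over the 4 libraries was 4.33 for Ermap, 4.21 for Cldn13, 4.09 for Blvrb (biliverdin reductase B), 3.52 for Cpox (coproporphyrinogen oxidase) and 2.84 for Fech (ferrochelatase, which inserts iron into heme). The metallothionein Mt2 was at 2849.6, 1002, 1055 and 526 CPM in gated and 409, 34.8, 67.4 and 23.4 in other cells (median log2 ratio 4.15), and its neighbour Mt1 had 3.06. The other genes with the largest ratios at a mean of at least 100 CPM were Nxpe2, Cited4, Icam4, Hbb-bs, Rfesd, Smim1, Ssx2ip, Hba-a2, Abcb4, Hebp1, Hemgn and Rgcc.

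Many genes of other fates had lower levels in gated cells. Plac8, a gene of myeloid and lymphoid progenitors, was at 550.2, 296, 194 and 145 CPM in gated and 2486, 1449, 1712 and 1366 CPM in other cells, lower in every library. Id2, Ifi203, Ighm, Stfa1, Emb, Mndal, Ccnd1, Ctsg and Gimap1 had the other lowest ratios, with medians of -2.89 (Id2, an inhibitor of helix-loop-helix factors) to -2.55 (Gimap1). By list, 18 of 25 early erythroid progenitor genes, 21 of 30 heme synthesis and iron genes, 13 of 27 red cell membrane genes and 4 of 6 globin genes were higher in the gated cells of all 4 libraries. Of all genes of at least 10 CPM, 23.3% were higher in all 4 libraries and 21.8% lower, a floor that the lists do not have. Erythroid transcription factors outside the gate were higher in 9 of 25 cases and lower in 4. Lymphoid genes were lower in 19 of 22 cases, stem and multipotent progenitor genes in 17 of 26 and monocyte and macrophage genes in 9 of 15. Granulocyte genes were lower in 12 of 20 cases, but their sum was 5087, 2671, 2397 and 1942 CPM in the gated cells of KO 1, KO 2, WT 1 and WT 2 and 4949, 2370.2, 2554 and 1804 in the other cells, higher in the gated cells of KO 1, KO 2 and WT 2; it includes Mt1. Megakaryocyte genes, some of which the rule limits, summed to 299.8, 525, 170.0 and 241 CPM against 462, 476, 471 and 429, higher in KO 2. The LSK markers were checked next. Kit was at 28.4, 57.9, 23.0 and 37.6 CPM in gated and 42.3, 53.2, 35.7 and 58.9 in other cells of KO 1, KO 2, WT 1 and WT 2, and Ly6a at 8.64, 10.2, 2.30 and 0 against 48.0, 60.7, 10.6 and 19.9. Ly6a was thus listed at 0 in the gated cells of WT 2. Ptprc, the pan-leukocyte gene CD45, was at 28.4, 78.4, 20.7 and 26.8 against 120.0, 127, 88.7 and 131 CPM. Of the mast cell list Prg2 was at 0 in the gated cells. Hepatocyte genes summed to 0 to 17.2 CPM in gated cells. Erythroid lists outside the rule were thus high in the gated cells, and Ly6a was lower than in the other cells of every library.

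**Figure D2:**
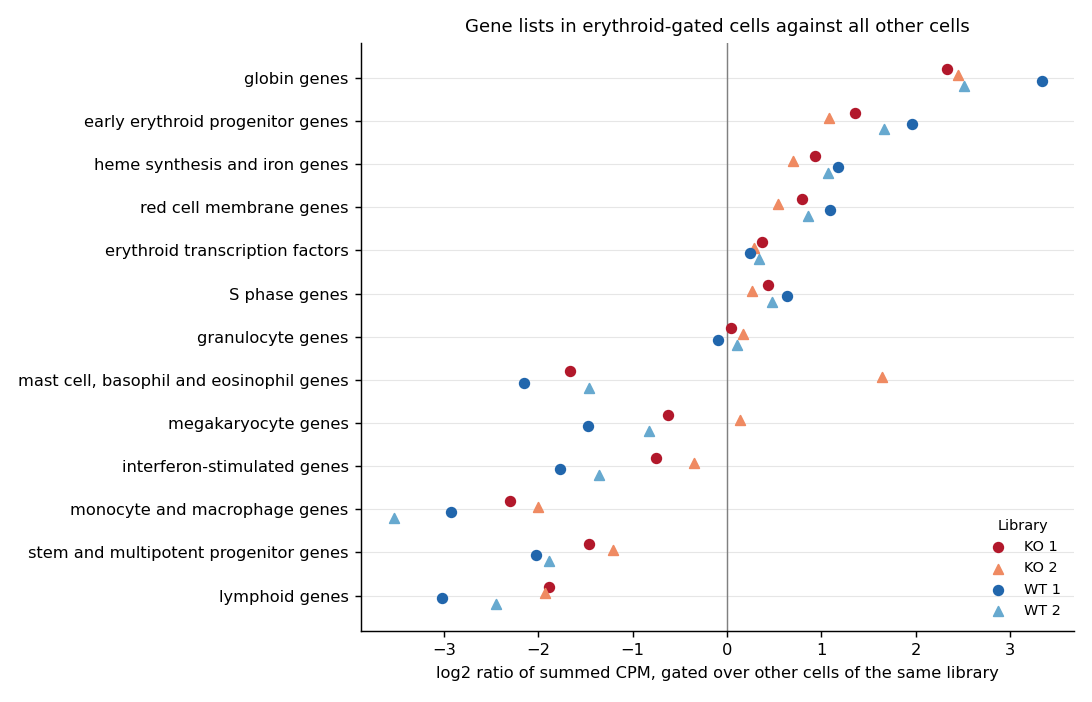
Log2 ratio of the summed CPM of each gene list, gated over other cells, with 1 point per library. Globin, early erythroid, heme and membrane lists lie above 0 in every library, and lymphoid, stem and monocyte lists below 0; the mast cell list is above 0 in KO 2 alone.

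Levels of genes outside the rule followed the gate sum. Among cells outside the megakaryocyte gate, 14036 had a sum of 0, 898 of 1, 249 of 2, 130 of 3, 84 of 4, 126 of 5 to 7 and 84 of 8 or more, and their median depth was 1666, 1884, 2356, 2922, 3278, 4648 and 8011 counts, so depth rose with the sum. Car2, a carbonic anhydrase of erythroid progenitors, was at 152 CPM at a sum of 0, 577 at 2, 769 at 3 and 1369 at 8 or more, with no step at the threshold. The early erythroid list summed to 2955, 7219, 8399 and 11305 CPM in the same classes and the heme list to 4659.8, 7439, 8928 and 12162. Stem and multipotent progenitor genes summed to 1884, 883, 718 and 389.7 CPM and interferon-stimulated genes to 4188, 2837, 2325 and 1455. At equal gate sums the interferon-stimulated list, and from a sum of 2 the early erythroid list, separated the genotypes, but depth was not equal: at a sum of 3 the median depth was 2899, 4119, 2999 and 2199 counts in KO 1, KO 2, WT 1 and WT 2, and at 8 or more 6958, 12797, 7650 and 8113, so that KO 2 was deepest and the same sum was a lower level there. The part of depth in the separation was not tested. The early erythroid list was at 6792 and 5847 CPM in the KO libraries and 8588 and 8223 in the WT libraries at a sum of 2, just outside the gate, at 7695 and 6125 CPM in the KO libraries and 10869 and 9311 in the WT libraries at 3 and at 9227 and 8772 CPM in the KO libraries and 13477 and 10279 in the WT libraries at 8 or more. Both KO libraries were below both WT libraries in every class from a sum of 2 upward and overlapped with them at 0 and 1. The heme list separated the genotypes at 2 and at 5 to 7 only. At 3 it was at 8901 and 6058 CPM in KO and 10950 and 8849 in WT. At 8 or more it was at 10018 and 10672 CPM in KO and 14287 and 10539 in WT. Gated cells with a sum of 8 or more made up 15.1% and 14.3% in the KO libraries. In the WT libraries they made up 25.9% and 23.1%. The part of this mix in the levels of all gated cells was not tested. The interferon-stimulated list was at 4725 and 5144 CPM in the KO libraries and 3029 and 3207 in the WT libraries at a sum of 0 and at 2395 and 1794 CPM in the KO libraries and 816 and 1226 in the WT libraries at 8 or more, with both KO libraries above both WT libraries in every class. The 8 or more class held 28, 6, 41 and 9 cells in KO 1, KO 2, WT 1 and WT 2.

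**Figure D3:**
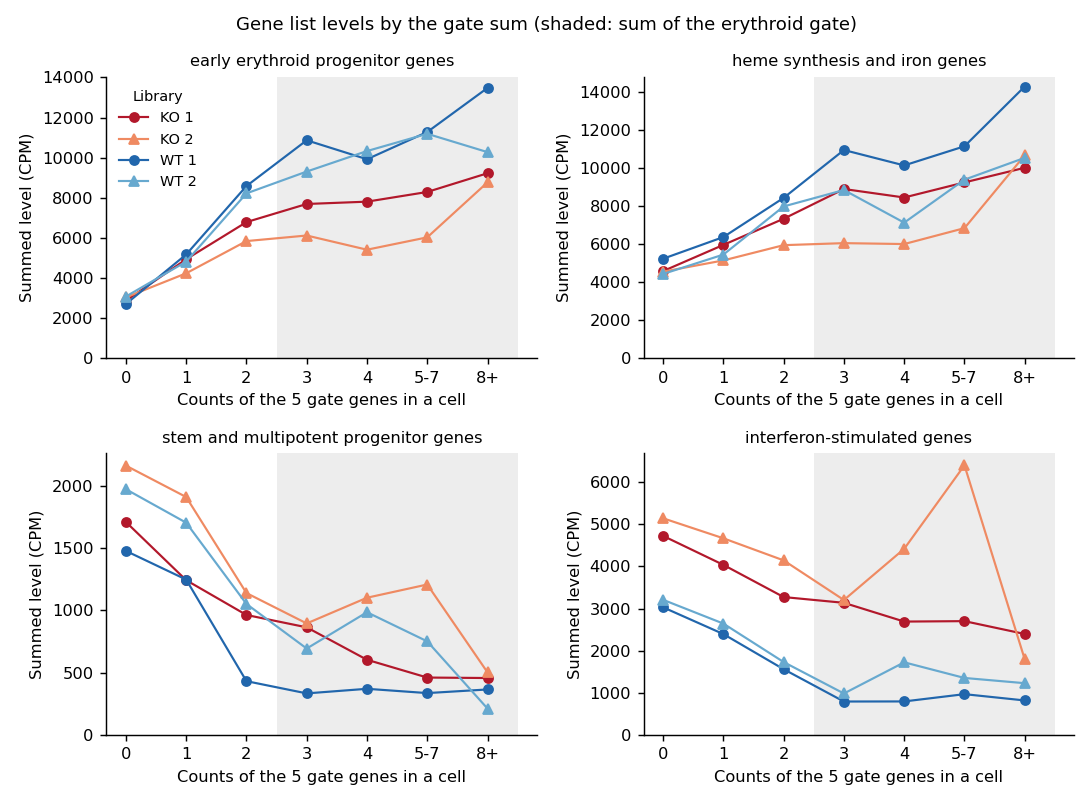
Summed CPM of 4 gene lists (vertical axes) against the counts of the 5 gate genes in a cell (horizontal axes), 1 line per library, with the sums of the erythroid gate shaded. The early erythroid lines of KO 1 and KO 2 run below those of WT 1 and WT 2 from a sum of 2, and the interferon-stimulated lines run above them throughout.

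Of the 8 genes called between KO and WT gated cells, 4 were interferon-stimulated and all 4 rose. Counts were summed over the gated cells of each library, the quasi-likelihood test of edgeR was applied, and p-values were adjusted by Benjamini-Hochberg; from here CPM are TMM-normalized. Of 5948 genes tested, 8 (0.134%) passed an adjusted p of 0.05, 6 higher (0.101%) and 2 lower (0.0336%) in KO, and 2 of the 8 were Xist and Eif2s3y. Ifitm3, which restricts the entry of viruses, was at 229 and 218 CPM in KO 1 and KO 2 and 37.6 and 44.6 in WT 1 and WT 2 (log2 fold change 2.46, SE 0.292, adjusted p = 0.00248, edgeR). Irgm1, an interferon-induced GTPase, was at 111 and 149.5 CPM in KO 1 and KO 2 and 8.05 and 19.8 in WT 1 and WT 2 (log2 fold change 3.49, SE 0.465, adjusted p = 0.00509, edgeR). Both KO values lay far above both WT values for each gene. Rtp4, a receptor transporter protein induced by interferon, was at 68.7 and 77.9 CPM in KO 1 and KO 2 and 0 and 0 in WT 1 and WT 2, at least 23.1-fold higher in KO against a floor of 3 counts over both WT sums (3.17 CPM; adjusted p = 0.00272, edgeR). Lgals3bp, a secreted galectin-binding protein, was at 40.0 and 59.2 CPM in KO 1 and KO 2 and 0 and 0 in WT 1 and WT 2, at least 15.6-fold higher against the same floor (adjusted p = 0.0153, edgeR). WT gated cells held no count of either. Fam212a was at 175 and 215 CPM in KO 1 and KO 2 and 28.2 and 29.8 in WT 1 and WT 2 (log2 fold change 2.71, SE 0.324, adjusted p = 0.00248, edgeR), with no overlap of the genotypes. Gstm5, a glutathione S-transferase, fell, as did Eif2s3y, and was at 66.2 and 37.4 CPM in KO 1 and KO 2 and 225 and 149 in WT 1 and WT 2 (log2 fold change -1.85, SE 0.318, adjusted p = 0.0432, edgeR); each KO library was below each WT library. The test called 107 genes without KO 1, 37 without KO 2, 44 without WT 1 and 318 without WT 2, and without the granule-positive cells 18 and without the mast-positive cells 39. In the other cells the same test called 6 of 13268 genes (0.0452%), 3 higher (0.0226%) and 3 lower (0.0226%).

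**Figure D4:**
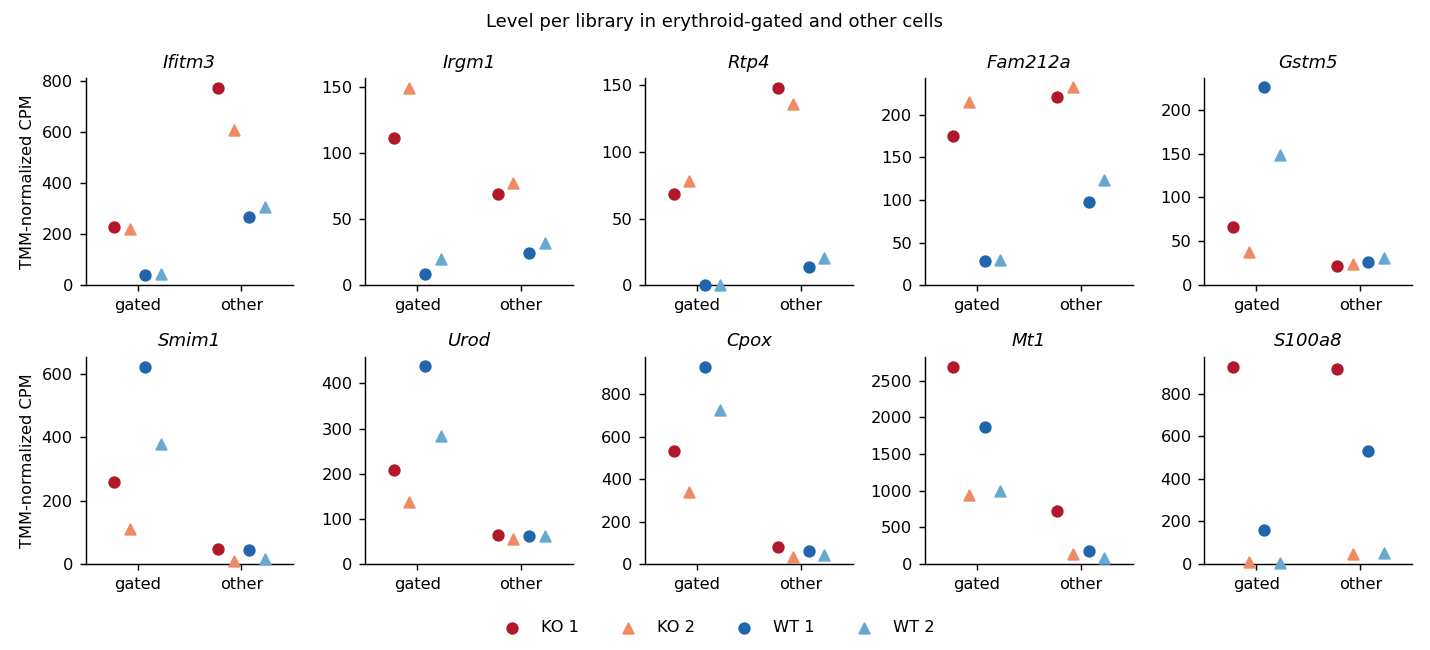
TMM-normalized CPM (vertical axes, from 0) of 10 genes in gated and other cells, 1 point per library. Ifitm3, Irgm1, Rtp4 and Fam212a are higher in both KO libraries in both classes of cells, while Gstm5, Smim1, Urod and Cpox separate the genotypes in the gated cells and less in the others.

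The interferon-stimulated list as a whole was higher in KO gated cells. Its 71 members in the table summed to 2764 and 3654 CPM in KO 1 and KO 2 and 1008 and 1141 in WT 1 and WT 2, with both KO sums above both WT sums. Of these, 30 passed the filter on low counts, which a gene can pass through the KO libraries alone, so their counts are biased towards a rise; 4 were called higher and 0 lower, and 28 had both KO values above both WT values, where 24.2% of all genes tested did and 17.9% had both below. The median log2 fold change of the 30 was 1.83, beside -0.0017 over all genes tested. An unadjusted p under 0.05 with a higher KO level was found for 26 of the 30 and for 6.84% of all genes tested. Ifi27 was at 102 and 90.3 against 17.4 and 29.8 CPM and Bst2, which tethers budding virus particles, at 107 and 74.8 against 21.5 and 4.96 CPM in KO 1 and KO 2 against WT 1 and WT 2. Neither passed, with adjusted p of 0.0597 and 0.0597 (edgeR). In the other cells the list summed to 4685 and 4922 CPM in KO 1 and KO 2 and 3097 and 3049 in WT 1 and WT 2. In bulk LSK RNA, where 44.2% of 14405 genes were called, 21.6% higher and 22.6% lower, 64 of 72 members were higher. Bulk values cannot tell a change in RNA per cell from a change in the number of cells of a type. The list had been examined in these libraries before, so its direction is not independent evidence.

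None of 26 heme synthesis and iron genes passed the test between KO and WT gated cells; 11 had both KO values below both WT values and 2 had both above, beside 17.9% and 24.2% of all genes tested. Heme is built from succinyl-CoA and glycine by a chain of enzymes that begins with the Alas enzymes and ends with Fech. Alad, the second enzyme of the chain, was at 269.8 and 206 CPM in the KO libraries and 561 and 367 in the WT libraries (log2 fold change -1.01, SE 0.264, adjusted p = 0.167, edgeR). Urod, which makes coproporphyrinogen, was at 209 and 137 CPM in the KO libraries and 439 and 283 in the WT libraries (log2 fold change -1.10, SE 0.276, adjusted p = 0.159, edgeR). For these enzymes KO 2 was the lowest library and WT 1 the highest, and the genotypes did not overlap. Cpox, the next enzyme, was at 531 and 339.6 CPM in the KO libraries and 930.0 and 724 in the WT libraries (log2 fold change -0.96, SE 0.282, adjusted p = 0.19, edgeR). Uros, which closes the porphyrin ring, was at 51.2 and 12.5 CPM in the KO libraries and 137 and 59.5 in the WT libraries (log2 fold change -1.58, SE 0.476, adjusted p = 0.202, edgeR). For both, each KO library was again below each WT library. The transferrin receptor Tfrc, through which iron enters, was at 245 and 156 against 354 and 307 CPM in KO 1 and KO 2 against WT 1 and WT 2, without overlap, and Fech at 111 and 31.2 against 172 and 109 CPM, where KO 1 exceeded WT 2. Of the 26 members tested, out of 30 in the table, 11 had an unadjusted p under 0.05 and were lower (5.87% of all genes). Their median log2 fold change was -0.70 in gated cells and 0.0069 over 29 members in other cells. The summed level was 9344 and 6826 CPM in KO 1 and KO 2 and 14281 and 8773 in WT 1 and WT 2, in which KO 1 exceeded WT 2. In bulk RNA 9 of 30 were higher and 10 lower, beside 21.6% and 22.6% of all genes. A gene can pass the filter on low counts through the WT libraries alone, so counts of members tested can be biased towards a fall. The early erythroid and membrane lists below have the same limit.

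None of 22 early erythroid progenitor genes passed the test; 12 had both KO values below both WT values and 2 had both above, against 17.9% and 24.2% of all genes. Smim1, the Vel blood group protein, was at 257 and 109 CPM in KO 1 and KO 2 and 621 and 377 in WT 1 and WT 2 (log2 fold change -1.45, SE 0.342, adjusted p = 0.127, edgeR). Car2 was at 724 and 548 CPM in KO 1 and KO 2 and 1664 and 987 in WT 1 and WT 2 (log2 fold change -1.10, SE 0.311, adjusted p = 0.188, edgeR). Rgcc, a regulator of the cell cycle, was at 164 and 87.2 CPM in KO 1 and KO 2 and 455 and 238 in WT 1 and WT 2 (log2 fold change -1.49, SE 0.328, adjusted p = 0.0971, edgeR). Every KO value was below every WT value for these genes. Tmem14c, a mitochondrial porphyrin transporter, was at 744 and 542 against 1679 and 903 CPM in KO 1 and KO 2 against WT 1 and WT 2, also without overlap. Of the 22 members tested, 13 were lower at an unadjusted p under 0.05, beside 5.87% of all genes. The median log2 fold change was -0.92 in gated cells, -0.38 without WT 1 and -0.39 after thinning, and 0.022 in other cells. The whole list of 25 summed to 8411 and 6072 CPM in KO 1 and KO 2 and 13922 and 9407 in WT 1 and WT 2. In bulk RNA 13 of 25 were lower and 3 higher, beside 22.6% and 21.6% of all genes.

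Membrane and globin genes serve later stages, and none passed the test. Rhag, the Rh-associated glycoprotein, was at 58.7 and 31.2 against 177 and 74.4 CPM in KO 1 and KO 2 against WT 1 and WT 2 and Gypc, glycophorin C, at 38.7 and 34.3 against 77.8 and 74.4 CPM, both without overlap of the genotypes. Of 21 red cell membrane genes tested, 0 were called, 7 had both KO values below both WT values and 1 above (17.9% and 24.2% of all genes tested), with a median log2 fold change of -0.40. At an unadjusted p under 0.05, 6 of the 21 were lower and 1 higher, beside 5.87% and 6.84% of all genes. In bulk RNA 16 of 28 were lower, beside 22.6% of all genes. Among the globins, Hba-a1 was at 546 and 174 CPM in KO 1 and KO 2 and 1692 and 253 in WT 1 and WT 2, Hbb-bs at 1239 and 523 against 1953 and 332 CPM and Hbb-bt at 1264 and 336 against 1727 and 511 CPM. WT 1 was the highest library for each, KO 1 came next, and the genotypes overlapped. The median of the 4 globins tested was -0.97, which turned to 0.59 without WT 1 and to 0.57 after thinning, so no direction is given for them. Erythroid transcription factors outside the gate had a median of -0.039 over 21 tested, with 0 called, 3 higher and 4 lower without overlap, beside 24.2% and 17.9% of all genes. The highest fold among them was that of Nfe2, a partner of globin regulation, at 189 and 224 CPM in KO 1 and KO 2 and 81.9 and 54.5 in WT 1 and WT 2 (log2 fold change 1.46, SE 0.283, adjusted p = 0.0632, edgeR).

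**Figure D5:**
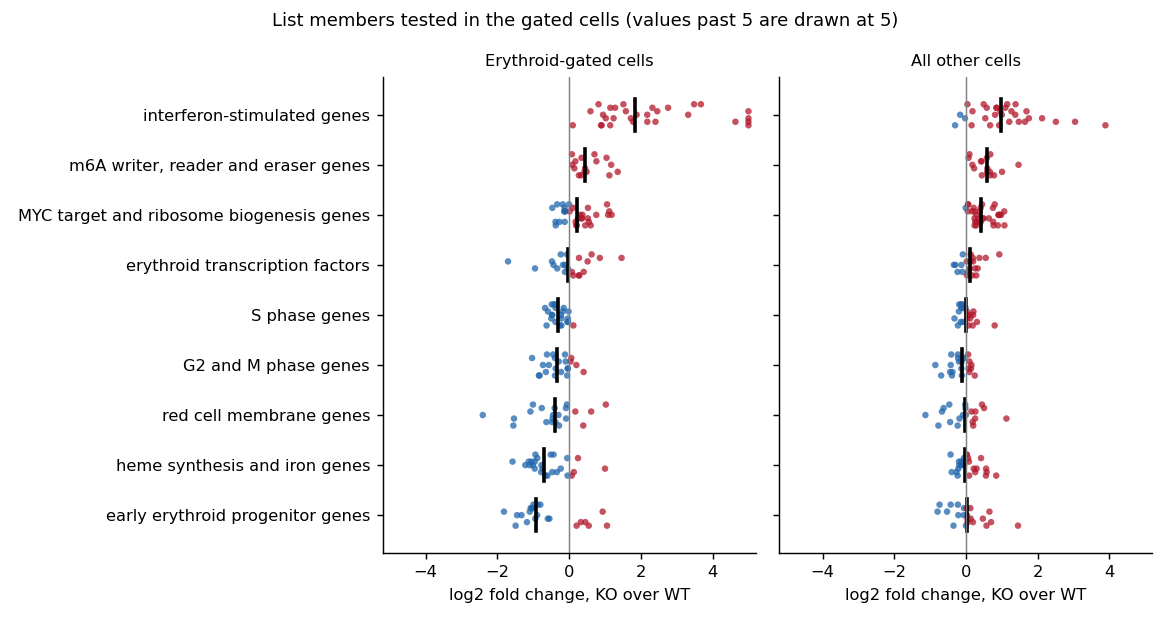
Log2 fold change of KO over WT (horizontal axes) of the members of 9 lists that were tested in the gated cells, in gated (left) and other cells (right); red points are above 0, blue below, and black bars are medians. The heme and early erythroid lists lie mostly below 0 in the gated cells and around 0 in the others, and the interferon list lies above 0 in both.

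No member of the lists outside the interferon response was called in the gated cells at an adjusted p of 0.05 (edgeR). Over all genes tested, 24.2% had both KO values above and 17.9% both below, and the counts that follow are to be read beside these shares. Genes that write, read and erase m6A had 16 members tested, 10 with both KO values above and 0 with both below, and a median of 0.44. Wtap, a subunit of the writer complex, was at 159.9 and 131 against 65.8 and 59.5 CPM in KO 1 and KO 2 against WT 1 and WT 2, and the reader Ythdf2 at 345 and 349 against 121 and 208 CPM. Their adjusted p were 0.148 and 0.16 (edgeR), and the median in other cells was 0.44. MYC targets and ribosome biogenesis genes had 33 members tested, 16 with both KO values above and 5 with both below, and a median of 0.21, against 0.39 in other cells. S phase genes had 22 members tested, 0 with both KO values above and 9 with both below, and a median of -0.31. G2 and M phase genes had 22 members tested, 1 with both KO values above and 9 with both below, and a median of -0.33. At an unadjusted p under 0.05, 7 of these were lower and 0 higher, beside 5.87% and 6.84% of all genes. By the same measure 2 S phase genes were lower and 0 higher. For the m6A genes 0 were lower and 5 higher, and for the MYC list 0 and 5. Ccna2, the cyclin of S and G2 phase, was at 112 and 103 against 236 and 188 CPM (adjusted p = 0.144, edgeR), both KO libraries below both WT libraries. Erythropoietin and Kit signalling genes had 12 members tested, 3 with both KO values above and 1 with both below, and a median of 0.32. Of the integrated stress response genes 17 were tested, with a median of -0.033, and of the p53 targets 6, with -0.25.

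The sums of some lists of other cell types separated the genotypes in the gated cells. A gene can pass the filter on low counts through the KO libraries alone or the WT libraries alone. For lists of low level that are higher in KO, counts of members tested are thus biased towards a rise. Of the stem and multipotent progenitor genes, 5 of 10 tested had both KO values above both WT values, beside 24.2% of all genes tested. The whole list of 26 summed to 598 and 844 CPM in KO 1 and KO 2 and 409 and 486 in WT 1 and WT 2, without overlap. Granulocyte genes summed to 5151 and 2442 CPM in KO 1 and KO 2 and 2801 and 1795 in WT 1 and WT 2, where KO 1 was highest and KO 2 was below WT 1. That sum holds Mt1 (2689 and 935 against 1865 and 1002 CPM), a metallothionein, and Calr (694 and 950.2 against 513 and 655 CPM), a chaperone, which are not restricted to granulocytes and made up much of it; the median of 6 tested was 1.63, and 0.37 without the granule-positive cells. Mpo, myeloperoxidase, was at 215 and 402 against 79.2 and 104 CPM in KO 1 and KO 2 against WT 1 and WT 2. All 4 megakaryocyte genes tested had both KO values above both WT values, beside the same 24.2%. The 21 members in the table summed to 304 and 479.8 CPM in KO 1 and KO 2 and 199 and 223 in WT 1 and WT 2. Mast cell, basophil and eosinophil genes summed to 30.0 and 255 CPM in KO 1 and KO 2 and 16.1 and 24.8 in WT 1 and WT 2, highest in KO 2; Cpa3, the mast cell carboxypeptidase, was at 8.74 and 178 against 4.03 and 4.96 CPM and Hdc, which makes histamine, at 1.25 and 31.2 against 1.34 and 4.96 CPM. Lymphoid genes summed to 111 and 118 CPM in KO 1 and KO 2 and 154 and 134 in WT 1 and WT 2 and monocyte and macrophage genes to 84.9 and 65.4 CPM in KO 1 and KO 2 and 83.2 and 39.7 in WT 1 and WT 2. The part of these markers in the erythroid differences was not tested. Without the mast-positive cells the median of the early erythroid list was -0.84 and that of the heme list -0.58, and without the granule-positive cells they were -0.92 and -0.72.

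The difference between the KO effect in gated cells and that in other cells was tested directly, as an interaction over the 8 sums with the library as a block. Of 11934 genes, 56 passed (0.469%), 42 with a higher (0.352%) and 14 with a lower KO effect in gated cells (0.117%; edgeR, adjusted p under 0.05). The count was 4 without KO 2, 17 without WT 1, 17 without the mast-positive cells, 26 without the granule-positive cells, 5 among cells with a gate sum of 3 or 4 and 0 after thinning. Within the heme list Urod differed by -0.98 (SE 0.264, adjusted p = 0.0436) and Cpox by -0.94 (SE 0.253, adjusted p = 0.0436) on the log2 scale (edgeR). In the other cells the genotypes overlapped for these enzymes: Cpox was at 78.8 and 34.6 against 62.6 and 44.1 CPM in KO 1 and KO 2 against WT 1 and WT 2, and Urod at 63.1 and 55.1 against 62.3 and 60.9 CPM. Smim1 differed by -1.31 (SE 0.276, adjusted p = 0.00249), Tmem14c by -0.97 (SE 0.243, adjusted p = 0.0232) and Rgcc by -1.09 (SE 0.284, adjusted p = 0.0339) (edgeR). The globin Hba-a2 differed by -1.30 (SE 0.340, adjusted p = 0.0361) and this turned to 0.19 without KO 1. After thinning the sign also turned for Smim1 (0.078, SE 0.664), Urod (0.38, SE 0.818) and Gclm (0.13, SE 0.874). The thinned gate held 34 and 5 cells in KO 1 and KO 2 and 23 and 9 in WT 1 and WT 2, so these signs are not settled. Gstm5 differed by -1.47 (SE 0.323, adjusted p = 0.00467), at 21.4 and 24.4 against 25.9 and 31.3 CPM in other cells. Asns, the asparagine synthetase, differed by -1.43 (SE 0.275, adjusted p = 0.00118): it was at 194 and 137 against 393 and 208 CPM in gated cells and at 50.5 and 32.8 against 30.2 and 25.5 CPM in other cells, so the order of the genotypes was opposite in the classes. Mns1, a coiled-coil protein, differed by -0.99 (SE 0.252, adjusted p = 0.0266) and Gclm, of glutathione synthesis, by -1.03 (SE 0.263, adjusted p = 0.0268). For Mt1 the difference was -1.17 (SE 0.243, adjusted p = 0.00249), with 2689 and 935 against 1865 and 1002 CPM in gated and 718 and 133 against 178 and 78.2 CPM in other cells.

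In the other direction, 5 of 68 interferon-stimulated genes tested, against 0.352% of all genes, had a larger KO effect in gated cells. Irgm1 differed by 2.09 (SE 0.471, adjusted p = 0.00628), its log2 fold change being 3.49 in gated and 1.38 in other cells. Psmb8, a subunit of the immunoproteasome, differed by 1.47 (SE 0.329, adjusted p = 0.00574): it was at 102 and 196 against 53.7 and 39.7 CPM in gated and at 345 and 387 against 351 and 359 CPM in other cells, where the genotypes did not separate. Lgals9, a galectin, differed by 1.23 (SE 0.288, adjusted p = 0.0101) and Trim30a by 2.47 (SE 0.651, adjusted p = 0.0361, edgeR). Lgals3bp passed as well (adjusted p = 0.00805, edgeR), with no count in WT gated cells. With 1 library left out the difference ranged from 0.72 to 1.54 for Lgals9. For Trim30a it ranged from 1.61 without KO 2 to 9.93 without WT 1, so its size is not settled. Outside the list, Fam212a differed by 1.65 (SE 0.353, adjusted p = 0.00307), the tetraspanin Cd63 by 1.89 (SE 0.374, adjusted p = 0.00138), the lysosomal protein Laptm5 by 1.87 (SE 0.393, adjusted p = 0.00249), the microtubule protein Eml4 by 1.59 (SE 0.348, adjusted p = 0.00422) and Cpne3 by 1.57 (SE 0.376, adjusted p = 0.0133). Laptm5 was at 41.2 and 106 against 24.2 and 29.8 CPM in gated and 146 and 189 against 229.9 and 249.7 CPM in other cells. Several genes of other lineages were among the calls. Mpo differed by 1.24 (SE 0.294, adjusted p = 0.0122), S100a8 by 1.58 (SE 0.327, adjusted p = 0.00249) and S100a9 by 1.56 (SE 0.375, adjusted p = 0.0136), and the last 2 turned negative without KO 1 and without the granule-positive cells. S100a8 was at 927 and 9.35 against 161 and 4.96 CPM in gated cells, so KO 1 was highest, WT 1 came next and both libraries numbered 2 were low. Cpa3 differed by 3.26 (SE 0.635, adjusted p = 0.00118) and Nkg7 by 2.17 (SE 0.585, adjusted p = 0.0436); Csf2rb passed (adjusted p = 0.038, edgeR) with no count in WT gated cells. After thinning the difference was negative for Cpne3 (-9.60, SE 5.65), Trim30a (-1.09, SE 2.81), Lgals9 (-0.17, SE 1.06), Cpa3 (-0.42, SE 6484) and Csf2rb (-0.38, SE 5060). With so few thinned cells these signs are not settled either.

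Megakaryocyte-gated cells, the most similar class by lineage, were few: 25 and 18 in KO 1 and KO 2 and 20 and 4 in WT 1 and WT 2, and 4 further cells met both gates. Of 1575 genes tested between KO and WT there, 3 were called higher (0.19%) and 0 lower (edgeR). The 4 cells of WT 2 held 7212 counts in all. The difference between this class and the erythroid gate was not tested.

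The gate genes themselves are given in the gated cells as a description, since the rule used them. Klf1 was at 713 and 386 against 727 and 560.4 CPM in KO 1 and KO 2 against WT 1 and WT 2, Gata1 at 207 and 221 against 189 and 223 CPM and Epor at 106 and 81.0 against 145 and 94.2 CPM. Rhd was at 139 and 34.3 against 289.9 and 183 CPM and Car1 at 26.2 and 0 against 34.9 and 59.5 CPM, and for both each KO library was below each WT library. The share of gated cells with a count of Rhd was 41.1% and 21.4% in KO and 61.4% and 53.8% in WT. The promoters of Klf1, Rhd and Epor are printed above. In bulk LSK RNA, which the rule did not use, 3 of the 5 genes were called lower in KO, against 22.6% of all genes. Rhd was at 17.3, 14.3 and 14.8 CPM in the KO and 24.7, 43.7 and 29.9 in the WT libraries (log2 fold change -1.09, SE 0.190, adjusted p = 0.00172, edgeR). Car1 was at 2.73, 2.10 and 2.33 CPM in the KO and 4.14, 5.04 and 3.65 in the WT libraries (log2 fold change -0.86, SE 0.188, adjusted p = 0.0056, edgeR). For both genes the 3 KO libraries lay below the 3 WT libraries. Gata1 was at 39.2, 29.0 and 32.1 CPM in the KO and 40.2, 44.3 and 39.9 in the WT libraries (log2 fold change -0.32, SE 0.112, adjusted p = 0.041, edgeR), and lost the call without KO 2 (adjusted p = 0.217), KO 3 (adjusted p = 0.189), WT 2 (adjusted p = 0.179) or WT 3 (adjusted p = 0.0738). Klf1 was at 52.9, 32.6 and 34.6 CPM in the KO and 48.1, 60.2 and 48.6 in the WT libraries (log2 fold change -0.40, SE 0.173, adjusted p = 0.0895, edgeR) and Epor at 25.4, 16.4 and 16.5 CPM in the KO and 20.6, 28.1 and 22.6 in the WT libraries (log2 fold change -0.30, SE 0.182, adjusted p = 0.204, edgeR); their genotypes overlapped.

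H3K4me3, a mark of active starts, was counted in windows at transcript starts (labelled 3k, with no further definition), and each gene was tested at whichever of its windows had most counts on average. Of 51039 windows tested 7.88% were called, 3.22% higher and 4.66% lower in KO, and of the 5 gate genes only Car1 was called. Car1 also had the lowest level of the 5 in every library. Its window at the start at chr3:14808365 was at 2.30 and 3.07 CPM in KO and 5.25 and 4.54 in WT (log2 fold change -0.87, SE 0.255, adjusted p = 0.0178, edgeR), and the call was lost when any of the 4 libraries was left out. Klf1 was at 73.8 and 64.1 CPM in KO and 58.2 and 50.2 in WT (log2 fold change 0.33, SE 0.220, adjusted p = 0.278, edgeR) and Rhd at 28.5 and 26.4 CPM in KO and 33.9 and 29.1 in WT (log2 fold change -0.21, SE 0.176, adjusted p = 0.37, edgeR), so the start of Rhd was not called while its RNA was. Gata1 had a log2 fold change of 0.24 and Epor of 0.20, and neither passed (adjusted p = 0.329 and 0.476, edgeR). The transcript start of the Epor window lay 1012 bases from the start used for the sequence printed above.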

How the data were processed

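Counts as deposited by the authors were used for the single-cell table (per gene and cell), the bulk table (per gene) and the H3K4me3 table (reads in windows at transcript starts, labelled 3k, per the labels). The submitters' processing notes name Seurat 3.0, STAR 2.5.3a and Bowtie2 2.2.9, among others, and the build GRCm38.p5, with no step for each; the counting tool, strand setting, duplicate removal and whether the single-cell counts are unique molecules are not given in the sources used here. The labels call the libraries biological replicates. Of 15707 cells, 15678 were kept for holding 500 counts or more and a mitochondrial share below 20%; doublets were not removed. Counts were summed per library over gated and other cells and tested with edgeR 4.0.16 in R 4.3.3 (filterByExpr, TMM, quasi-likelihood F test, Benjamini-Hochberg adjustment over all genes tested, adjusted p under 0.05); SE is the log2 fold change over the square root of F. The interaction used 8 sums with the library as a block. The code was tested on simulated data. Alternatives were other scalings, no filter, DESeq2 1.42.0, a replicate block, each library left out, other gates and thinning to 1000 counts.

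Named genes were the gate genes, Mettl3, called genes without overlap at a mean of at least 50 CPM (up to 12 in each direction, and 6 for the interaction), up to 4 members of each of 23 lists with the smallest p, the 20 highest and 10 lowest ratios of gated to other cells; Uros, Tfrc, Ifi27, Bst2, list members called in the interaction and Xist and Eif2s3y were added after results were seen. The members and lists were chosen with earlier results of these data known. Sequences are from RefSeq promoters of GRCm38.p6, and single-cell genes were matched to the other tables by symbol. Some genes of the lists are not reported here.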

Additional observations from a re-analysis of the deposited data

Results flagged for a closer look

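The results below stand out because the effect of the KO differed between the gated and the other cells of the same libraries by edgeR's test of that difference, which 56 genes passed. Among the genes named in the text, the KO effect was higher in gated cells for Irgm1 (0.00628), Fam212a (0.00307), Cd63 (0.00138), Laptm5 (0.00249), Eml4 (0.00422), Cpne3 (0.0133), Mpo (0.0122), S100a8 (0.00249), S100a9 (0.0136), Lgals3bp (0.00805), Cpa3 (0.00118), Csf2rb (0.038), Nkg7 (0.0436), Trim30a (0.0361), Lgals9 (0.0101) and Psmb8 (0.00574), with the adjusted p of the difference in parentheses. It was lower in gated cells for Gstm5 (0.00467), Asns (0.00118), Smim1 (0.00249), Rgcc (0.0339), Gclm (0.0268), Mns1 (0.0266), Hba-a2 (0.0361), Urod (0.0436), Cpox (0.0436), Tmem14c (0.0232) and Mt1 (0.00249). Among gated cells S100a8 and S100a9 were highest in KO 1 and Cpa3 in KO 2, and none of the 56 passed after thinning to 1000 counts.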

How the results depend on the processing

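The 2 libraries per genotype limit every single-cell and H3K4me3 comparison, and the number of calls moved with most settings. In gated cells the 8 calls (6 higher, 2 lower) became 142 with no filter on low counts, 28 with a gate sum of 2 or more, 4 with 5 or more, 52 without Gata1 in the gate, and, chosen after seeing the data, 39 without mast-positive cells, 2 at a gate sum of 3 or 4 and 18 without granule-positive cells; 37 to 318 were called with 1 library left out, which leaves a lone sample assumed to vary like the others. With library size alone 8 were higher and 1 lower, and the median log2 fold change over all genes was 0.19 instead of -0.0017; DESeq2 called 7. Ifitm3, Irgm1 and Fam212a passed under 17 of 18 alternatives, Rtp4 under 17 of 17, Lgals3bp under 16 of 17 and Gstm5 under 14 of 18. The named differences between the classes passed less often, from 5 of 17 alternatives (Csf2rb) and 6 of 18 (Cpox, Urod and Rgcc) to 13 of 18 (Fam212a) and 13 of 17 (Gstm5 and Cd63). In the other cells the 6 calls became 10 with library size alone, 14 with no filter and 333 with DESeq2, and 1 to 4 with 1 library left out. The 56 differences between the classes became 87 with RLE size factors, 128 with library size alone (median of all genes 0.13), 32 with no filter, 22 with DESeq2, 129 with a gate sum of 2 or more, 9 with 5 or more, 5 without Gata1, 0 after thinning (where 8749 genes were tested), 17 without mast-positive cells, 5 at a gate sum of 3 or 4 and 26 without granule-positive cells, and 4 to 60 with 1 library left out. In megakaryocyte-gated cells the 3 calls became 1 with RLE size factors, library size alone or no filter, 0 with DESeq2, and 0 to 10 with 1 library left out. Bulk RNA called 2 to 5 gate genes with 1 library left out, beside 3 in all; H3K4me3 called 2 with library size alone, 0 with DESeq2 and 0 to 0 with 1 library left out, beside 1. The share difference of -0.943 points became 0.043 at a gate sum of 3 or 4 and ranged from -3.36 to 1.48 with 1 library left out (0.397 without KO 2).

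Replicate numbers were shared by the genotypes. Same-numbered libraries correlated in their deviations from the group means by 0.256 (gated), 0.234 (other cells), 0.051 (megakaryocyte gate), 0.302 (H3K4me3) and 0.230, 0.096 and 0.044 (bulk), but with 2 pairs, or not every pair over 0.1, and no label for a shared batch, the numbers were not taken to pair the samples. With the replicate number as a block, 40 genes were called in gated cells, 403 in other cells, 1 in megakaryocyte-gated cells and 2 gate genes in H3K4me3.

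Several of the named genes changed sign under other settings. With 1 library left out, the log2 fold change in gated cells ranged from -1.17 to 1.35 for Hbb-bs (the upper end without WT 1), and, with the lower end without KO 1, from -3.40 to 6.49 for S100a8 and -6.95 to 9.21 for S100a9. The difference between classes after thinning was -9.60 for Cpne3, 0.078 for Smim1, 0.13 for Gclm, 0.38 for Urod, -0.42 for Cpa3, -0.38 for Csf2rb, -1.09 for Trim30a and -0.17 for Lgals9. With 1 library left out it ranged from -1.53 to 0.19 for Hba-a2, -0.51 to 3.17 for S100a8 and -6.66 to 8.48 for S100a9, with the change of sign without KO 1. At a gate sum of 3 or 4 it was 0.042 for Hba-a2, and without granule-positive cells -1.41 for S100a8 and -1.55 for S100a9. The cause of these changes was not tested. Thinned gated cells gave 261 genes to test, and low depth limits what they can show, including the signs after thinning.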
